A study of Caenorhabditis elegans with 2 samples.

Results

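The 8 genes described here, unc-18, unc-64, snb-1, ric-4, tom-1, unc-13, snt-1 and cpx-1, encode core proteins of synaptic vesicle fusion and its control in the nematode Caenorhabditis elegans. They were chosen by name from the 19973 protein-coding genes on the 6 nuclear chromosomes in the Ensembl WBcel235 annotation. The data are places in the genome where CEH-48 was found by chromatin immunoprecipitation with sequencing (ChIP-seq), in which DNA bound by a tagged protein is pulled down with an antibody and sequenced. There was 1 group, with 2 biological replicates, each of whole late embryos, both sexes pooled, taken 3.5 hours after synchronization by egg bleaching. All worms were of strain OP631, which carries the unc-119(tm4063) mutation and the wgIs631 transgene, from which CEH-48 is made with a C-terminal tag of GFP and FLAG. One description in the labels names an antibody to GFP for the pull-down, while the antibody tag names ceh-48. There was no other condition and no untagged strain, and a whole embryo mixes neurons with all other cells. A strong region can therefore mean strong binding in a few cells or weaker binding in many, and these cannot be told apart. No expression was measured, so the tissue was not checked against markers.

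CEH-48 belongs to the ONECUT class of cut homeodomain transcription factors and is made by neurons throughout the worm. Fusion of a synaptic vesicle with the plasma membrane is driven by SNARE proteins that zip together from both membranes: syntaxin (unc-64) and SNAP-25 (ric-4) on the plasma membrane and synaptobrevin (snb-1) on the vesicle. UNC-18 holds syntaxin and guides assembly of the complex, UNC-13 opens syntaxin so that vesicles become ready to fuse, and tomosyn (tom-1) occupies SNARE partners and holds release back. Complexin (cpx-1) clamps partly assembled complexes, and synaptotagmin (snt-1) senses the calcium that triggers release. These proteins are used by nearly all neurons, whatever their transmitter.

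The reference sequences at 5 summits are shown because CEH-48 signal peaked there upstream of these genes, and because they differ in the cut core they hold. Each run is 120 bases centred on the summit of the pooled list, from the RefSeq WBcel235 genome (ce11), written 5′ to 3′ on the strand of the gene, and none overlaps an annotated exon. Capitals mark ATCGAT, a known binding core of cut family proteins, which reads the same on both strands, and ATTGAT, a variant of it (ATCAAT on the other strand).
unc-18, chrX:7682488-7682607, plus strand: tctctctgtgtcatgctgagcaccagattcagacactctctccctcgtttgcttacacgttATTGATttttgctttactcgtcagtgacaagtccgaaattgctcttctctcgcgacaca
unc-64, chrIII:13275918-13276037, plus strand: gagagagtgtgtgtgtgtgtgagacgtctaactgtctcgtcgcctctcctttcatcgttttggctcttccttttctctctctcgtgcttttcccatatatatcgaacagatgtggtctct
snb-1 (far), chrV:6658809-6658928, minus strand: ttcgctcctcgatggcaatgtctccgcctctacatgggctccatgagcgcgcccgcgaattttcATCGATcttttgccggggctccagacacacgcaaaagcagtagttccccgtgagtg
snb-1 (near), chrV:6656868-6656987, minus strand: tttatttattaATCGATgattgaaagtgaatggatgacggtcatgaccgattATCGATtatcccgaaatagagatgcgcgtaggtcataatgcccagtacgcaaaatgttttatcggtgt
ric-4, chrV:10273913-10274032, minus strand: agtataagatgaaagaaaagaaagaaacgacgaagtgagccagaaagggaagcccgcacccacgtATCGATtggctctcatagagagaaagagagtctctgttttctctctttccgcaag

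CEH-48 peaks lay upstream of most of the fusion genes and in the body of none. Only 3.14% of all protein-coding genes had a peak in the body, so 0 of 8 is close to that share. A region was given to a gene when its summit lay in the gene body or within 5 kb of its 5′ end on either side. By this rule 6 of the 8 genes (unc-18, unc-64, snb-1, ric-4, tom-1 and cpx-1) had a peak of the authors' reproducible set, the IDR peaks, which are the top 1840 regions, by signal, of the list called on both replicates pooled. Of all protein-coding genes, 18.1% had one by the same rule. The 6 genes held 7 IDR peaks in all, as snb-1 had 2, and unc-13 and snt-1 had none. All 7 summits lay upstream of the 5′ end of the gene. They also lay outside every protein-coding gene body, where 1075 of the 1840 IDR summits (58.4%) were found. The windows of fusion genes hold 73.8 kb of gene body, without an IDR summit, and 40 kb of sequence in the 5 kb upstream, with the 7. Across the genome there were 12.2 IDR summits per Mb inside gene bodies and 28.7 per Mb outside. No test was made on these counts, because the genes were chosen with results of these data known.

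**Figure D1:**
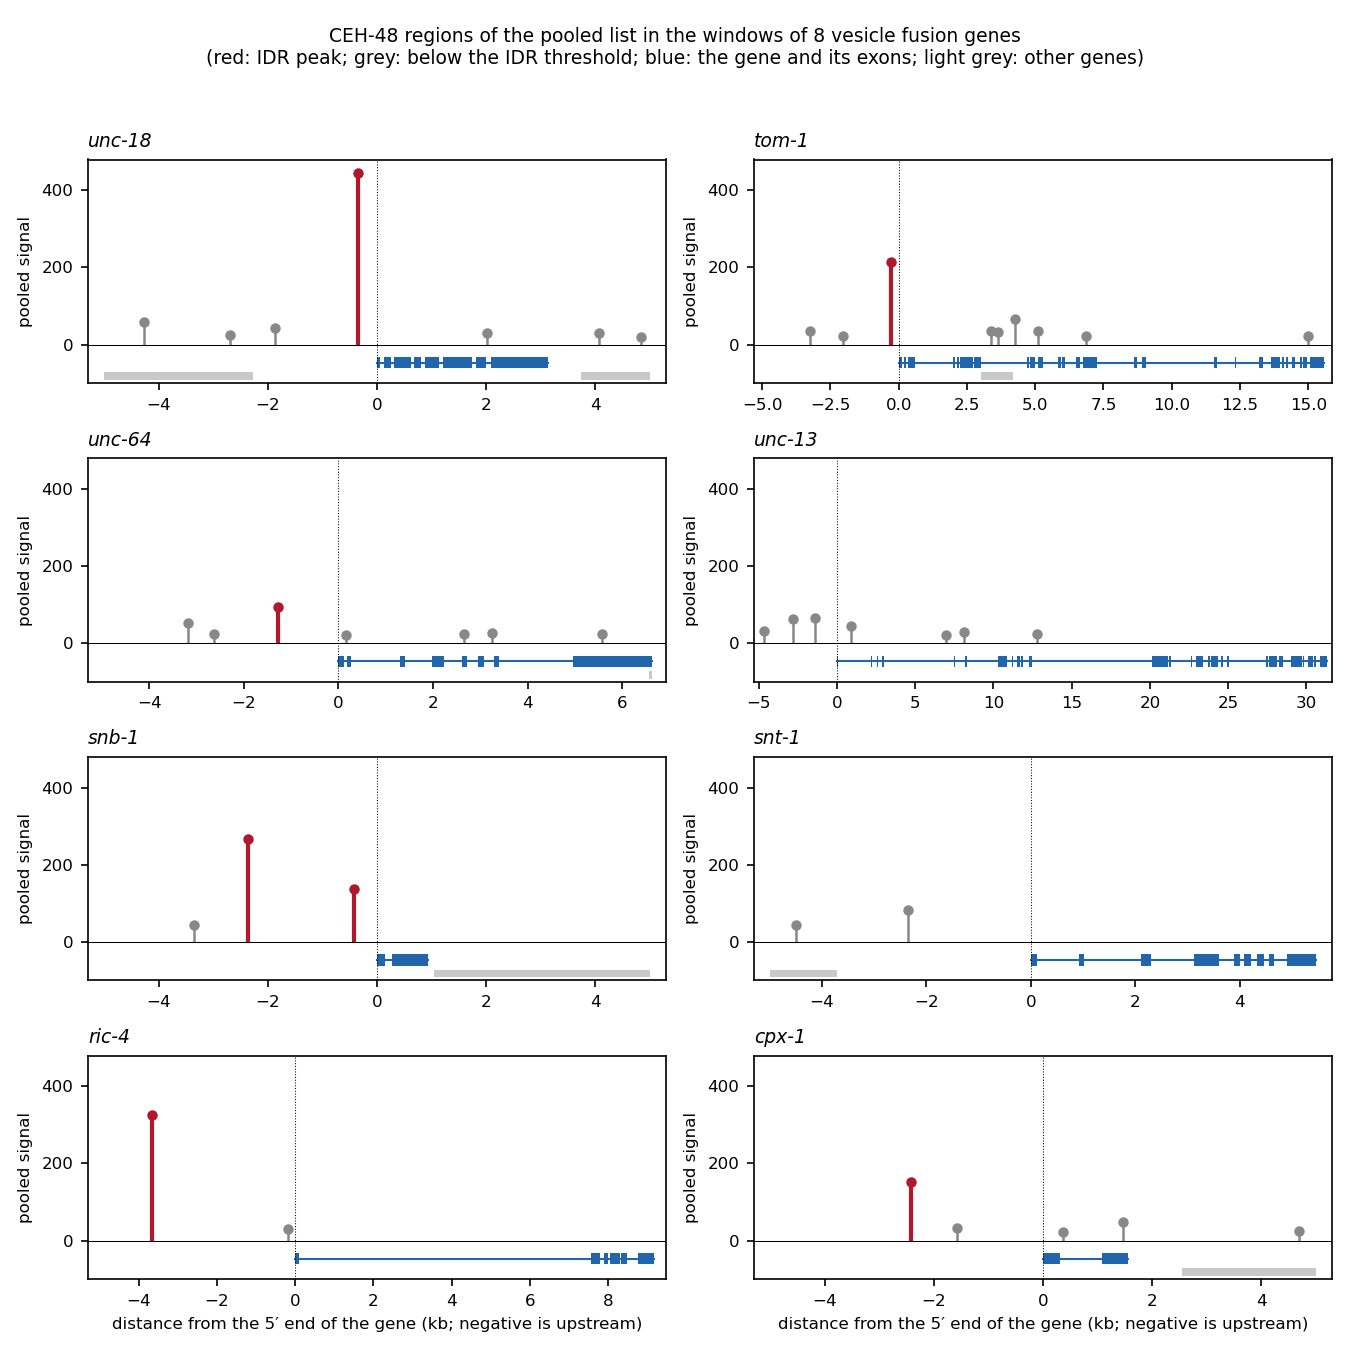
CEH-48 regions of the pooled list at the 8 genes, with distance from the 5′ end of the gene in kb (negative is upstream) on the x axis and the authors' signal on the y axis; red stems are IDR peaks, grey stems are regions below the IDR threshold, blue bars are exons of the gene and light grey bars are other protein-coding genes. The 7 red stems, at 6 genes, all stand to the left of the 5′ end, and the regions inside gene bodies are low and grey.

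unc-18, which encodes the syntaxin-binding partner that gives the SM protein family its place in fusion, had the strongest peak of the set. It lay on chromosome X from 7682397 to 7682695, with its summit 348 bp upstream of the 5′ end. The pooled list gave it a signal of 444, replicate 1 gave 131 and replicate 2 gave 319.8. It ranked 62nd of 30000 pooled regions, 50th of 28372 in replicate 1 and 70th of 30000 in replicate 2, so both libraries placed it near the top of their own lists. Signals are the value of the authors' peak caller on a scale that is not stated, so they are compared only within a list. Only 165 genes, 0.826% of all protein-coding genes, had an IDR peak at least as strong in their window. The gene on the other side, stn-2, a syntrophin gene, starts 1929 bp from the summit and is read in the opposite direction, so unc-18 was the nearer of the pair.

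The genes of the 3 SNARE proteins each had an IDR peak, at differing strength and distance. ric-4, the SNAP-25 gene, had the strongest of these, on chromosome V from 10273857 to 10274091, with a pooled signal of 327, a replicate 1 signal of 87.5 and a replicate 2 signal of 239.7. Its ranks were 191, 207 and 186 in the pooled, replicate 1 and replicate 2 lists, so all 3 lists placed it at a similar rank. It was also the farthest from its gene, 3659 bp upstream. The nearest annotated 5′ end belonged to Y22F5A.11, 1673 bp away, but that gene is read on the same strand as ric-4 and the summit lay 1429 bp past its 3′ end. The only other pooled region in the ric-4 window, 180 bp upstream of the 5′ end, had a signal of 30.1 and rank 14839, far below the IDR threshold.

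snb-1, the synaptobrevin gene, was the one fusion gene with 2 IDR peaks, which 642 protein-coding genes (3.21%) had. The far peak, on chromosome V from 6658748 to 6658961, lay 2368 bp upstream, with a signal of 266 in the pooled list (rank 321), 67 in replicate 1 (rank 379) and 199.9 in replicate 2 (rank 299). The near peak, from 6656743 to 6657112, lay 427 bp upstream, with a signal of 136 in the pooled list (rank 975), 33.17 in replicate 1 (rank 1358) and 104 in replicate 2 (rank 895). The far peak thus had the higher signal in each of the 3 lists. No other protein-coding gene starts between them, and the next gene upstream, pmp-5, ends 3322 bp beyond the far summit. On the other side snb-1 is only 940 bp long, and syx-18, the gene of another syntaxin, starts close past its 3′ end, so both peaks also fell in the 5 kb around the start of syx-18.

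unc-64, the syntaxin gene, had the weakest of the 7 peaks, on chromosome III from 13275793 to 13276162, 1280 bp upstream. The pooled signal was 94.7, that of replicate 1 was 37.8 and that of replicate 2 was 50.8. It ranked 1592nd in the pooled list and 1095th in replicate 1 but 2590th in replicate 2, so it was the 1 peak of the 7 that fell outside the top 1840 regions of a replicate. The lowest IDR signal was 85.2. The next gene on the other side, cpf-2, starts 7095 bp from the summit.

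Of the genes of proteins that restrain or prepare fusion, tom-1 and cpx-1 had an IDR peak and unc-13 had none. At tom-1, the tomosyn gene, the summit lay 289 bp upstream, the closest of the 7 to a 5′ end (chromosome I from 5545644 to 5546013), with a signal of 214 in the pooled list (rank 498), 68.3 in replicate 1 (rank 362) and 139 in replicate 2 (rank 600). It was the 1 other peak besides those of unc-18 and unc-64 that ranked better in replicate 1 than in replicate 2. The window of tom-1 also held the strongest region inside the body of a fusion gene, in an intron 4274 bp downstream of the 5′ end, with a pooled signal of 65.8 (rank 2739). In replicate 1 it ranked 1699th (signal 29.1) and in replicate 2 it ranked 6016th (33.7), so that it was among the top 1840 of replicate 1 only. The nearest annotated start of a tom-1 transcript was 4165 bp away. A nearer start was that of ostd-1, a gene within the tom-1 body that is read in the opposite direction. ostd-1 starts 4177 bp downstream of the tom-1 5′ end, so this summit lay just upstream of ostd-1.

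At cpx-1, the complexin gene, the IDR summit lay 2424 bp upstream (chromosome I from 1598455 to 1598824), with a signal of 151 in the pooled list (rank 838), 29.5 in replicate 1 (rank 1653) and 119.7 in replicate 2 (rank 758). Both libraries held it in their top 1840, replicate 2 the higher. The next protein-coding gene, aatf-1, starts 3198 bp away on the other side, so cpx-1 had the nearer 5′ end.

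unc-13 has the longest body of the 8 genes, 31332 bp, and transcripts that start at 5 places over it. No region in its window reached the IDR threshold. The strongest, 1383 bp upstream, had a pooled signal of 65.8 (rank 2738), ranked 2392nd in replicate 2 (signal 53.5) and had no counterpart within 100 bp in replicate 1. The next, 2825 bp upstream, had a pooled signal of 62.1 (rank 2997), with rank 3968 in the replicate 1 list and 4059 in that of replicate 2. Transcripts also start 10632, 20251 and 20384 bp downstream, inside the gene. No IDR summit lay anywhere in the body. The strongest pooled region in the body, 876 bp downstream of the first 5′ end, had a signal of 43.6 (rank 6157).

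snt-1, the gene of the calcium sensor, fell just below the threshold. Its strongest region, 2351 bp upstream, had a pooled signal of 82.9 and rank 1921, 81 ranks below the last IDR peak, whose signal was 85.2; the weakest IDR peak at a fusion gene, that of unc-64, had 94.7. The snt-1 region ranked 1741st in replicate 2 (signal 65.5), which is within its top 1840, and 3217th in replicate 1 (21.7). It lay nearer to the start of F31E8.5, 1350 bp away on the other side and read in the opposite direction. The 2 libraries thus placed it on opposite sides of that rank.

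**Figure D2:**
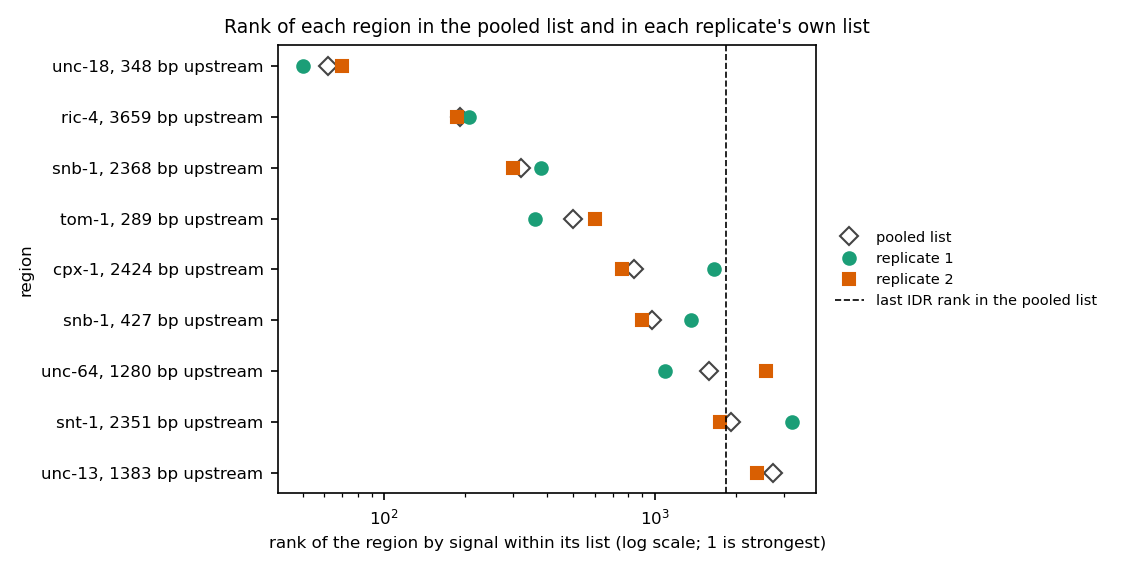
Rank of each of the 7 IDR peaks, and of the strongest region at snt-1 and unc-13, in the pooled list (open diamonds), replicate 1 (circles) and replicate 2 (squares), on a log axis where 1 is the strongest region; the dashed line is the last IDR rank, 1840. The 3 ranks of the unc-18, ric-4 and far snb-1 peaks lie close together, while those of unc-64 and snt-1 fall on both sides of the line, and unc-13 has no circle.

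Each replicate's list had a summit within 100 bp of all 7 peaks, as both did for 1737 of the 1840 IDR peaks (94.4%). Among the 1840 strongest regions of both replicates were 6 of the 7, against 1256 of 1840 (68.3%). Replicate summits lay between 2 and 49 bp from the pooled summit. Taken from the 1840 strongest regions of replicate 1 alone, 6 of the 8 genes had a summit in the window, where 17.7% of all genes did, and they were the same 6 as in the IDR set. From replicate 2 alone, 6 of 8 had one, where 18.1% of all genes did, but with snt-1 in and unc-64 out. The pooled list was called on the reads of both replicates, and the lists share a further input file, so the lists are not independent of each other.

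The 7 peaks at fusion genes differed widely in signal. Their median was 214, between 94.7 and 444, against 141 over all 1840 IDR peaks, and their median rank was 498. For the 6 genes with a peak, the median of the strongest signal was 239.9, against 152 over the 3621 protein-coding genes with an IDR summit in the window. The widths were 370 bp at 4 of the 7 peaks, the most frequent width of the set (60.2% of IDR peaks), while those at unc-18, ric-4 and the far snb-1 peak were narrower, from 214 to 299 bp.

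**Figure D3:**
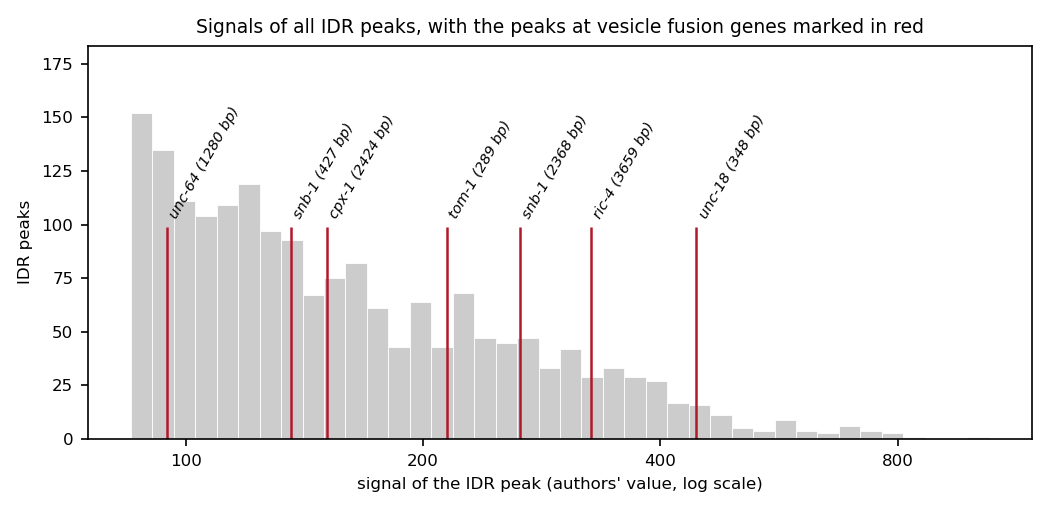
Histogram of the signal of all 1840 IDR peaks on a log axis, with a red line and a label (gene and distance upstream) at each of the 7 peaks of fusion genes; line height has no meaning. The unc-64 peak stands near the lower end at 94.7, 3 peaks lie between 136 and 214, and those of ric-4 and unc-18 stand in the upper tail at 327 and 444.

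How many fusion genes counted as bound depended on how far upstream a summit was allowed to lie. In a promoter window that began 1 kb before the 5′ end and ended 200 bp after it, 3 of the 8 genes (unc-18, snb-1 and tom-1) had an IDR summit, against 6.29% of protein-coding genes. With the gene body and 1 kb upstream the same 3 had one, against 8.59%. Within 2 kb on either side of the 5′ end unc-64 joined them, which made 4 of 8 against 9.86%. When a summit counted only for the gene whose 5′ end was nearest, 5 of 8 had one, against 8.03%, with ric-4 left out because Y22F5A.11 starts nearer. With the gene body and 5 kb upstream, all 6 genes had one, against 14.8%. With the gene body alone, 0 of 8 had one, against 3.14% of genes. A weak region was common: 77.5% of all genes, and all 8 fusion genes, had some region of the pooled list in the 5 kb window.

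**Figure D4:**
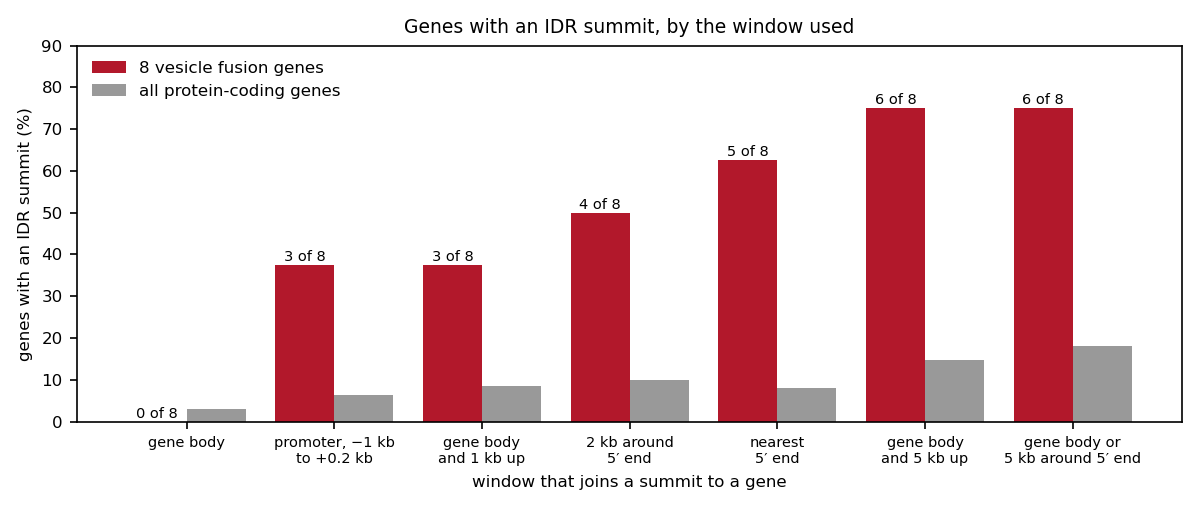
Percent of the 8 fusion genes (red, with counts) and of all 19973 protein-coding genes (grey) with an IDR summit, for 7 rules that join a summit to a gene, on an axis from 0. The red bars rise from 0 of 8 for the gene body to 6 of 8 when 5 kb upstream is allowed, and the grey bars lie between 3.14 and 18.1%.

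These genes have more room upstream than most. The distance from the 5′ end to the next protein-coding gene upstream was between 2276 bp (unc-18) and 14273 bp (unc-13), with a median of 5655 bp against 937 bp over all genes. Their median length was 6050.5 bp against 2027 bp. Among the 5770 genes with at least 2276 bp upstream, 14.4% had an IDR summit by the 5 kb rule, and among the 2358 genes with windows at least as long as the median window of the 8, 26.2% had one. The part of gene length and upstream room in the counts was not tested beyond these values. The summits lay a median of 1280 bp from the nearest 5′ end, between 289 and 2424 bp, against a median of 638 bp over all IDR summits.

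The cut core ATCGAT was found at 4 of the 7 summits and the variant ATTGAT at 2 more. ATCGAT lay in the 100 bp around the summits of cpx-1, ric-4 and both peaks of snb-1, and in 44.2% of such windows over all 1840 IDR peaks and 9.16% of windows centred 500 bp to each side. The near snb-1 peak had 2 copies, and 12% of IDR peaks had at least 2 at any spacing. They started 41 bp apart, and their centres lay 45.5 and 4.5 bp from the summit. In the far snb-1 peak and the ric-4 peak the single copy lay 7.5 and 8.5 bp from the summit, and at cpx-1 it lay 35.5 bp away.

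At unc-18 and tom-1, which had no ATCGAT in the window or anywhere in the region, ATTGAT lay 3.5 and 11.5 bp from the summit. This variant was in 28.8% of all IDR windows and 13.1% of the flanking windows. Either sequence was in 6 of the 7 windows, 62.4% of all IDR windows and 19.6% of flanks. The strongest peak of the set, at unc-18, was thus one of those with ATTGAT and without ATCGAT. The unc-64 window had neither, nor did the rest of its region, but it held TATCGA, which was in 3 of the 7 windows and 36.4% of all IDR windows. AATCGA was in 3 of the 7 windows (45.1% of all) and CGATAA in 1 (26.8%). Both strands were searched for each, and these 6-mers overlap ATCGAT by 4 or 5 bases. Such a match is a description of the letters and does not show a site in use.

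The strongest unc-13 region held neither sequence, while its second had 3 copies of ATTGAT. The window of that second region was 18% GC, with 53 of its 100 bases soft-masked as repeats. GC content in the 7 windows ranged from 37 to 56%, with a median of 46%, the same as the median of all IDR windows. Between 0 and 44 of the 100 bases were soft-masked as repeats in the RefSeq genome (median 20, against 21 over all IDR windows).

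**Figure D5:**
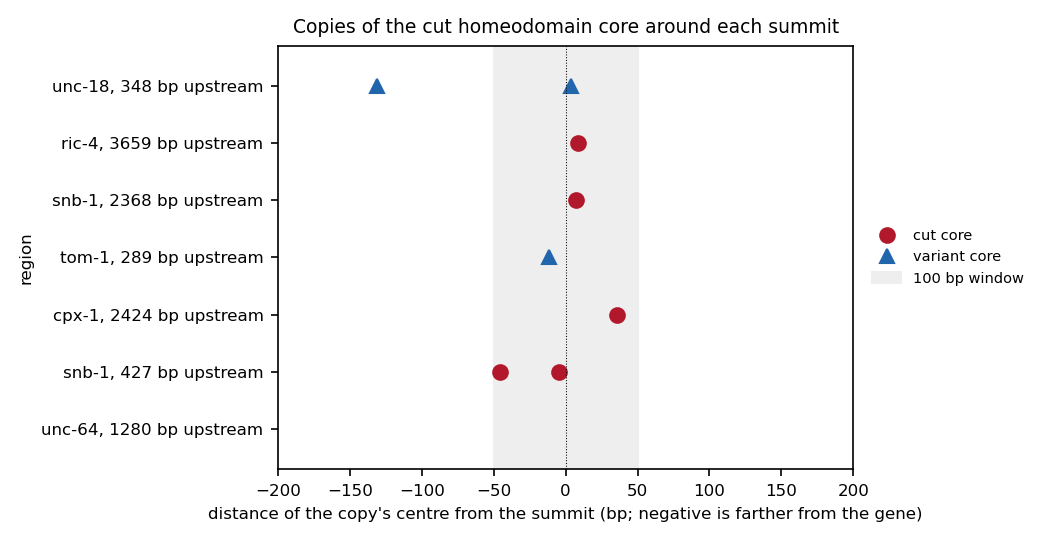
Distance in bp of each copy of the cut core (red circles) and of its variant (blue triangles) from the summit of the 7 IDR peaks, within 200 bp, with the 100 bp window shaded; points mark the centre of a copy, and negative distances are farther from the gene. The unc-18, tom-1, ric-4 and both snb-1 peaks each have 1 copy within 12 bp of the summit, unc-18 and the near snb-1 peak have a second copy farther out (131.5 and 45.5 bp), and unc-64 has no copy.

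Among 48 other genes of SNARE assembly, membrane fusion and the presynaptic release site, 21 had an IDR summit by the 5 kb rule (43.8%, beside the 18.1% of all genes). Of these 21, the strongest summit was nearest to the gene's own 5′ end at 11 and to that of a neighbour at 10. By the promoter window 8 of the 48 had one, beside 6.29% of all genes, and 4 of the 48 had one in the body, beside 3.14%. The median of the strongest signal over the 21 genes was 151, beside the 239.9 of the 6 fusion genes with a peak. The strongest was at nsf-1, the gene of the ATPase that takes spent SNARE complexes apart, 473 bp upstream with a signal of 446 (rank 61; 98.3 in replicate 1 and 345 in replicate 2), next in rank to the unc-18 peak. snap-1, the gene of its adaptor alpha-SNAP, had one 119 bp upstream (signal 139), so both genes of SNARE disassembly on the list had a promoter peak.

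By role, an IDR summit lay in the window of 3 of 4 other SM protein genes and 3 of 9 other syntaxin genes. The count was 3 of 9 for other SNAP-25-like and related SNAREs and 4 of 8 for other R-SNAREs (the synaptobrevin class). It was 2 of 6 for other synaptotagmins, 3 of 4 for active zone and Rab genes and 1 of 2 for priming genes. Of all protein-coding genes, 18.1% had one by the same rule. Counted by nearest 5′ end, the numbers were 1, 2, 1, 0, 2, 3 and 1 in that order, beside 8.03% of all genes. The 2 synaptotagmin genes were not the same under both rules. snt-2 dropped out, as its summit was nearest to rps-29, and snt-6 entered without an IDR summit in its window. vps-45, an SM protein gene of endosomal fusion, had its summit 17 bp upstream (signal 251). The signal at snb-5 was 239.8, 1189 bp upstream but nearest to the start of unc-36, and at sec-22 it was 229.6, nearest to stau-1. vti-1 had a signal of 213 nearest to mrps-7, and vps-33.2 had 181 nearest to dnj-8. The 266 at syx-18 is the far snb-1 peak again. Among genes of release, unc-31, the CAPS gene of dense-core vesicle priming, had a summit 2208 bp upstream (signal 256). rab-3, the Rab of synaptic vesicles, had one in its body, 2591 bp downstream of the 5′ end (229.9), and snt-3 had one in its body at 4765 bp (159.6). None of the 3 vesicle membrane genes (snn-1, sng-1 and sph-1) and not the second complexin gene, cpx-2, had an IDR summit.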

How the data were processed

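The authors called regions (peaks mixed with background) on the ce11 alignments of each replicate and of the pooled pair, always with the same further input file, and took the IDR set from those lists, per the read-me files they deposited. Column 7 of each list is the authors' deposited signal per region; the sources used here do not name the aligner, the peak caller, the IDR threshold or the read depth. All 1840 IDR peaks were the top 1840 regions of the pooled list. The replicate lists hold 28372 and 30000 regions. The ce10 lists were not used here.

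Summits (1-based) were joined to Ensembl release 115 protein-coding genes (WBcel235, ce11 coordinates), and bases were read from the RefSeq WBcel235 genome. Windows that run past a short gene's 3′ end reach its neighbours. The joins and searches were tested on simulated data. The genes, the list of 48 further genes and the alternatives were chosen with earlier results of these data known, so no test was made. Named genes are the 8 genes, any other gene whose 5′ end is nearest to one of their IDR summits or whose body holds it, and the 10 of the 48 with the strongest IDR signal. Flanking genes, genes nearest to summits of the 48, ostd-1, F31E8.5, snap-1, snt-2, snt-6, snn-1, sng-1, sph-1 and cpx-2 were named after values were seen. Windows at all genes were searched, but no sequence is printed for tom-1, unc-13 and cpx-1, and that of snt-1 is not reported here. Analyses used Python 3.11.15, numpy 2.4.6, pandas 2.3.3 and matplotlib 3.10.9.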

Additional observations from a re-analysis of the deposited data

How the results depend on the processing

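The 6 genes with an IDR summit became 3 with the promoter window or the gene body and 1 kb upstream, and 0 with the gene body alone. The 7 IDR summits became 3, 3 and 0 under these, and 4 within 2 kb of the 5′ end, and the 4 with ATCGAT became 1, 1, 0 and 1. With 5 kb upstream and the gene body, the nearest 5′ end, the 920 strongest IDR peaks, either replicate left out, summits matched at 50 or 200 bp, and sequence windows of 50 or 200 bp, the counts stayed within 1.5 times those reported. The summits with ATCGAT were not always the same ones. With replicate 2 left out there were 4, with the tom-1 intron region in and the near snb-1 peak out. With replicate 1 left out there were 5, with the snt-1 region added. The share of all protein-coding genes with an IDR summit, 18.1%, was 14.8% with the gene body and 5 kb upstream, 8.59% with 1 kb upstream, 3.14% with the gene body alone, 6.29% with the promoter window, 9.86% within 2 kb and 8.03% by nearest 5′ end. It was 26.2% among genes with long windows and 14.4% among genes with room upstream, both chosen after seeing the data; a limit at the shortest of the 8 windows left out no gene. Of 21 recomputed strongest signals, 18 were unchanged and 3, all of snb-1, fell to 136. The depth of the libraries is unknown, so a region below the IDR threshold does not show a lack of binding, as at snt-1 and unc-13.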

Other observations

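Below the IDR threshold the windows of the 8 genes held 35 regions of the pooled list, of which 4 had ATCGAT in the 100 bp around the summit; over all 28160 such regions of the list the share was 9.23%. The 4 were in the tom-1 intron described above, in an unc-13 intron 12781 bp downstream of the first 5′ end (signal 23.8, rank 23194), in a coding exon of F31E8.5 4490 bp upstream of snt-1 (44.2, rank 5980) and in the 3′ UTR of cpx-1 (48.7, rank 4796). Per kb of window, the 8 genes held a median of 0.369 pooled regions against 0.275 over all protein-coding genes, 0.274 against 0.281 in the replicate 1 list and 0.346 against 0.296 in the replicate 2 list. The median density of regions per kb was thus slightly below that of all genes in replicate 1 and above it in the other lists, with no test made.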
